A study of Mus musculus with 12 samples.

Results

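The proteases Plat, Plau and Ctsl, the transport proteins Trf and Clu, the FSH receptor Fshr and the transcription factors Gata1, Gata4, Wt1 and Sox9 are genes of Sertoli cells, the somatic cells that nurse the germ cells of the testis. These 10 genes were taken by name from the 19938 genes measured, each read by its brightest probe set with 1 gene symbol, and each had 1 such probe set. RNA of whole adult testis was hybridised to 12 arrays of the Affymetrix Mouse Gene 1.0 ST type, with 2 samples in each of 6 groups of stages of the seminiferous epithelium. In the order of the cycle the groups are XII-I, then II-IV and IV-VI, then VII, and last VIII-IX and IX-XI. All samples came from male mice of a mixed 129/C57BL6 background that had been synchronized. They received WIN 18,446, which blocks retinoic acid synthesis, at 100 ug per gram daily for 7 days from 2 to 8 days after birth. An injection of 200 ug of retinoic acid (RA) followed at 9 days, and the testes were taken 43 to 49 days later. No unsynchronized testis was analysed here, so all comparisons are between stages. Nothing in the labels tells whether partner samples are different animals, and p-values cover only the spread between the samples, which may be technical.

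Sertoli cells span the epithelium, and each changes its secretions as the germ cells around it pass through the stages of the cycle. FSH acts on them through a receptor that raises cyclic AMP, and androgen acts through a nuclear receptor. The secreted proteases loosen contacts when preleptotene spermatocytes cross the blood-testis barrier and when sperm are released. In the rat, plasminogen activator and the cathepsin L precursor are known to be secreted in a stage-dependent way, around the stages that lead up to sperm release. Transferrin carries iron to the germ cells behind the barrier, and clusterin is an abundant secreted glycoprotein that binds lipids and unfolded proteins.

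Levels are log2 of the deposited intensity, and a difference of 1 is a change of 2-fold. The values were made with RMA, which sets the arrays to nearly the same distribution, so every change is relative to the other transcripts of the array. Array medians ran from an intensity of 296.9 to one of 309.1. Partner samples had correlations of 0.987 to 0.995 across genes, yet for 9 of the 12 arrays the most similar array belonged to another group. In a whole testis, fewer cells of a type and less RNA per cell cannot be told apart.

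VII sample 2 stood apart in transcripts of somatic cells. The summed intensity of 20 measured Sertoli cell markers, a list that holds none of the 10 genes, was 37871 on VII sample 2 and 25409 on VII sample 1, against 24797 to 28592 on the other 10 arrays. VII sample 2 was the highest of the 12 arrays for 10 of these 20 markers, all 8 Leydig cell markers and 7 of 11 macrophage markers, against 11.5% of all genes. The summed Leydig cell markers were 26007 on VII sample 2 and 19321 on VII sample 1, against 11148 to 19799 on the others. The summed macrophage markers were 7289 and 3307 on the VII samples, against 3436 to 4349. It was the highest array for 3 of 8 peritubular myoid and 3 of 8 endothelial markers, and for 0 of 9 markers each of epididymis, spermatogonia, pachytene and diplotene spermatocytes, and round spermatids. The summed epididymal markers were 866 and 827 on the VII samples and 832 to 1147 on the others. No marker is at 0 in values of this kind. The VII samples are therefore given separately, and results are given with and without VII sample 2.

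**Figure D1:**
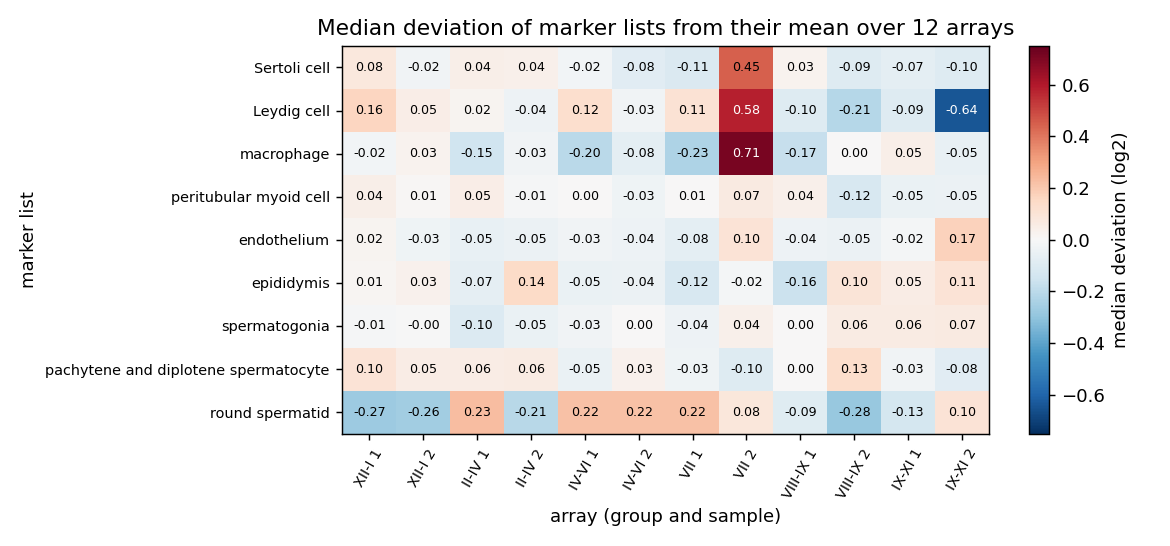
Median deviation, in log2, of 9 marker lists from their mean over the 12 arrays, with arrays in the order of the cycle along the x axis and lists down the y axis. VII sample 2 is high in Sertoli (0.45), Leydig (0.58) and macrophage (0.71) markers, while IX-XI sample 2 is low in Leydig markers (-0.64).

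Of the 10 genes, only Plat differed among the 6 groups in limma's F test with Benjamini-Hochberg adjustment over all genes, against 19.9% of all genes. At an unadjusted p under 0.05, 4 of the 10 passed, against 36.2% of all genes. The share of these genes that passed was thus below that of all genes in the adjusted test and near it at the unadjusted threshold. With 2 samples per group, a gene that was not called may still vary over the cycle, so the test does not settle which of the 10 genes are cyclic. Their median range between the highest and the lowest group mean was 0.52 log2, and that of all genes 0.34. Group means were highest in VII for 6 of the 10, against 12.9% of all genes, and VII sample 2 was the highest array for 8 of the 10. The VII samples also had the widest SD of any group for 8 of the 10 genes, against 17.4% of all genes.

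**Figure D2:**
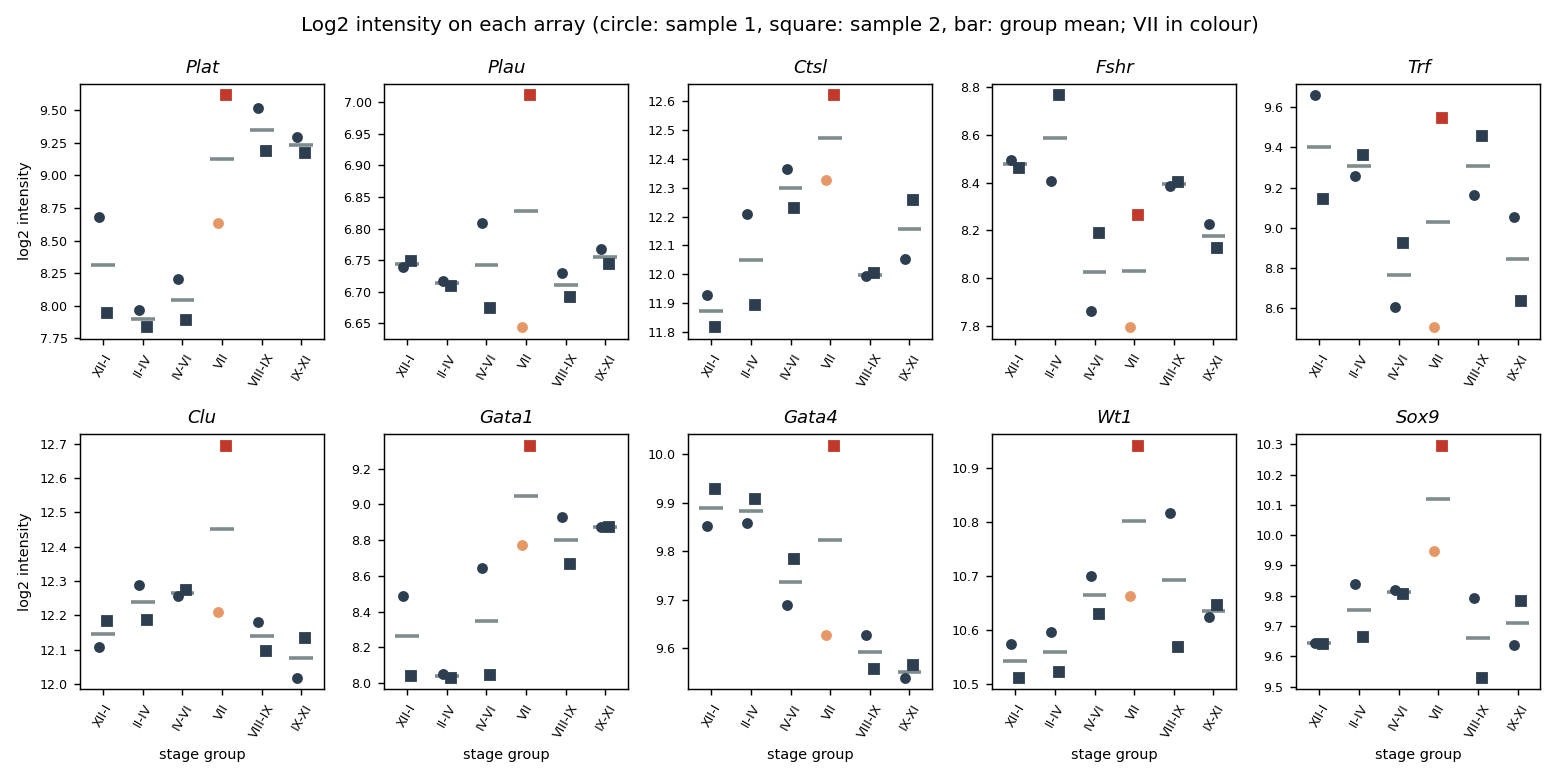
Log2 intensity (y axis) of the 10 genes in the 6 stage groups (x axis), with circles for sample 1, squares for sample 2, grey bars for the group mean, and the VII samples in orange and red. Plat is high on VII sample 2 and in VIII-IX and IX-XI but not on VII sample 1 (8.64). All Gata1 samples from VII to IX-XI lie above those of the other groups, a split whose share of all genes is not given here. Gata1 did not pass limma's F test (adjusted p = 0.055). VII sample 2 (red) is the highest array for 8 of the 10 genes, against 11.5% of all genes.

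Plat (probe set 10570855), the tissue-type plasminogen activator, turns plasminogen into the broad protease plasmin. Its levels were 8.68 and 7.94 in XII-I, 7.96 and 7.84 in II-IV, 8.20 and 7.89 in IV-VI, 8.64 and 9.62 in VII, 9.52 and 9.19 in VIII-IX, and 9.29 and 9.17 in IX-XI. The VIII-IX and IX-XI samples all lay above the samples of XII-I, II-IV and IV-VI. The share of all genes with such a split of joined groups is not given here. Nor is the share with no overlap between 2 groups, for this or the other genes. VII sample 1 lay close to XII-I sample 1, and VII sample 2 was the highest of all arrays. Plat averaged 9.35 ± 0.23 (SD, n = 2) in VIII-IX and 7.90 ± 0.09 in II-IV, 2.74-fold apart, a range wider than that of 96.3% of all genes (limma F test, adjusted p = 0.029).

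The Plat range stayed at 1.45 log2, with VIII-IX highest and II-IV lowest, without VII sample 2 (adjusted p = 0.030, 9.92% of all genes called) and without both VII samples (adjusted p = 0.019). The call ended in limma without II-IV sample 2 (adjusted p = 0.0502), either IV-VI sample (0.057 and 0.067), either VIII-IX sample (0.068 and 0.061) or either IX-XI sample (0.066 and 0.062). Its range was 1.33 to 1.62 log2 in these leave-outs. In the last 6 of them fewer of all genes passed than with all arrays, but not in the one without II-IV sample 2. Why the Plat call ended was not tested.

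Neighbours in the order of Plat levels overlapped at each of the 5 steps, from VIII-IX through IX-XI, VII, XII-I and IV-VI to II-IV. VII against the group before it, IV-VI, showed a log2 difference of 1.08 ± 0.32 (SE), and the samples did not overlap. That step was not called (adjusted p = 0.83), and 0% of all genes were called there in either direction. XII-I against IX-XI differed by -0.92 ± 0.32 (adjusted p = 0.092), again with no overlap, where 7.33% of all genes were called higher and 4.63% lower. Leaving out either VII sample made this step pass (adjusted p = 0.042), with 3.86% of all genes called lower in each of these fits. The step of VII against IV-VI passed without VII sample 1 (log2 difference 1.57 ± 0.28, SE, adjusted p = 0.034), where 1.86% of all genes were called higher.

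The 3 genes whose levels over the 12 arrays were most like those of Plat, among genes past the F test with a range of at least 1 log2, were Drp2 (Pearson r = 0.98), Sh3bp5 (r = 0.98) and Chp2 (r = 0.96). These correlations describe 12 arrays of 6 groups and share VII sample 2. Drp2, a relative of dystrophin, was highest in VIII-IX, and Sh3bp5 and the calcium-binding protein gene Chp2 were highest in IX-XI. Among the 10 genes, Gata1 was the one most like Plat, with r = 0.92.

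**Figure D3:**
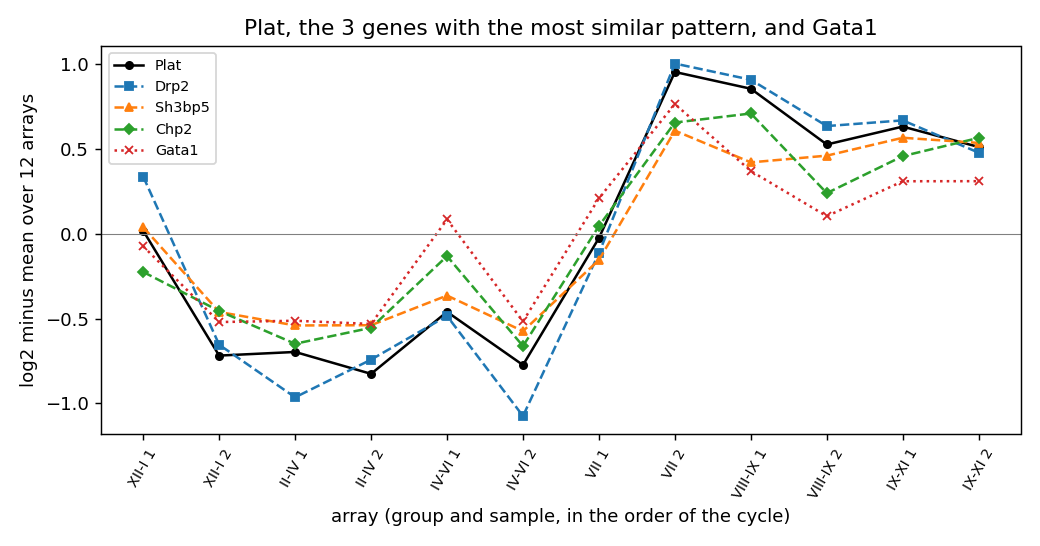
Log2 level minus the mean over 12 arrays (y axis) of Plat, Drp2, Sh3bp5, Chp2 and Gata1 on each array in the order of the cycle (x axis). All 5 genes lie near or below their mean on most arrays from XII-I to IV-VI and above it from VII sample 2 to IX-XI. On VII sample 1, Plat (8.64), Drp2 (8.52) and Sh3bp5 (10.02) lie below their levels on XII-I sample 1 (8.68, 8.97 and 10.21).

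Plau (10413047), the urokinase-type plasminogen activator, showed almost no range. Its levels were 6.74 and 6.75 in XII-I, 6.72 and 6.71 in II-IV, 6.81 and 6.67 in IV-VI, 6.64 and 7.01 in VII, 6.73 and 6.69 in VIII-IX, and 6.77 and 6.74 in IX-XI. VII sample 1 was the lowest and VII sample 2 the highest of the 12 arrays. The range of 0.12 log2 was wider than that of 5.50% of all genes (limma F test, adjusted p = 0.95). Its probe set was among the dimmest 30%, so a small signal cannot be separated here from none.

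Of the other genes of the plasminogen system, 2 of 10 measured passed limma's F test (20%, against 19.9% of all genes), and 1 without VII sample 2 (10%, against 9.92% of all genes). Serpina5, a protease inhibitor that acts on plasminogen activators and protein C, averaged 11.78 in VII and 10.53 in XII-I, 2.39-fold apart (adjusted p = 0.044, 0.10 without VII sample 2). Anxa2, a membrane protein that binds plasminogen and its activator at cell surfaces, averaged 10.94 in XII-I and 10.13 in IX-XI, 1.76-fold apart (adjusted p = 0.021). Plaur, the urokinase receptor, lay between 6.65 in VII and 6.80 in IX-XI and did not pass.

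Ctsl (10410124), the lysosomal and secreted cysteine protease cathepsin L, had levels of 11.93 and 11.82 in XII-I, 12.21 and 11.89 in II-IV, 12.37 and 12.23 in IV-VI, 12.33 and 12.62 in VII, 11.99 and 12.004 in VIII-IX, and 12.05 and 12.26 in IX-XI. Both VII samples were among the 3 highest arrays, and the XII-I samples did not overlap the VIII-IX samples, the next group up. The 1.52-fold range from VII, at 12.47 ± 0.21 (SD, n = 2), to XII-I, at 11.87 ± 0.08, missed the threshold (limma F test, adjusted p = 0.069). VIII-IX against VII gave a log2 difference of -0.47 ± 0.14 (SE, adjusted p = 0.073), with no overlap of samples, where 2.27% of all genes were called higher and 1.66% lower. Leaving out VII sample 2 gave a range over the groups of 0.45 log2 (adjusted p = 0.17).

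Of 18 measured cathepsins and cystatins, the inhibitors of cysteine proteases, 0 passed limma's F test, and VII sample 2 was the highest array for 14 of the 18. Their median deviation from the mean was 0.63 log2 on VII sample 2 and -0.08 on VII sample 1, against -0.11 to 0.02 on the other arrays. Macrophage markers were high on the same array, and cathepsins are strongly expressed in macrophages. Their part in the Ctsl level was not tested.

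Of 12 matrix proteases and their inhibitors, 3 passed limma's F test (25%, against 19.9% of all genes). Timp4, an inhibitor of matrix metalloproteases, had the widest range, with 9.31 in VIII-IX and 7.01 in IV-VI, 4.93-fold apart (adjusted p = 0.0070). Mmp11 was higher in VIII-IX than in IV-VI by 1.90-fold, and Mmp14, a membrane-bound metalloprotease, was higher in II-IV than in VIII-IX by 1.62-fold. All 3 also passed without VII sample 2 (25%, against 9.92% of all genes), and Timp4 and Mmp11 shared with Plat the highest group.

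Fshr (10453499), the receptor for follicle-stimulating hormone, is found in the testis on Sertoli cells only. Its levels were 8.49 and 8.46 in XII-I, 8.41 and 8.76 in II-IV, 7.86 and 8.19 in IV-VI, 7.80 and 8.27 in VII, 8.38 and 8.40 in VIII-IX, and 8.23 and 8.13 in IX-XI. VII sample 1 was the lowest of the 12 arrays and VII sample 2 lay in 7th place from the top, unlike most of the other genes. The order was II-IV, XII-I, VIII-IX, IX-XI, VII and IV-VI from high to low. The XII-I samples lay above those of VIII-IX, and the VIII-IX samples above those of IX-XI, with no overlap.

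Fshr averaged 8.59 ± 0.25 (SD, n = 2) in II-IV and 8.03 ± 0.23 in IV-VI, 1.47-fold apart, and it did not pass limma's F test (adjusted p = 0.12). IV-VI against II-IV differed by -0.56 ± 0.17 (SE) with no overlap of samples, an unadjusted p of 0.010 and an adjusted p of 0.71 in limma, where 0% of all genes were called. Without VII sample 2, the range widened to 0.79 log2, from II-IV to the remaining VII sample (adjusted p = 0.064). Relative to the Sertoli list, both VII samples were low, at 7.90 and 7.82, as was IV-VI sample 1, at 7.89. Subtracting the list lowered every gene on VII sample 2 by 0.45 log2. Fshr did not pass limma's F test after it (adjusted p = 0.16).

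The sequence before the Fshr start site is shown because this receptor is the point where the hormone enters the pathway, and because its E box, CACGTG, a site known to bind the factors Usf1 and Usf2, lies within it. In the RefSeq table of build GRCm38.p6 the 250 bases before the start are chr17:89200676-89200925, minus strand, written 5′ to 3′ with the E box in capitals.
Fshr: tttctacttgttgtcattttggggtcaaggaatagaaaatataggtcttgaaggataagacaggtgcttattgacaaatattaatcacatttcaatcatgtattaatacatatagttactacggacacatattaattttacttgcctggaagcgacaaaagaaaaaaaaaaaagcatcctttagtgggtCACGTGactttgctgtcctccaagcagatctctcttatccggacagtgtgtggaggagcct
The E box begins 61 bases before the start, and 6.02% of the 32851 promoter windows of that length hold it on either strand. The other motifs, searched on both strands, were not found in this window. AGATAA, a sequence bound by GATA factors, occurs in 9.99% of all windows, and its variant TGATAA occurs in 7.94%. The cyclic AMP response element TGACGTCA occurs in 1.55% of them. A SOX motif, AACAAT, occurs in 9.42%, and the WT1 and EGR motif CGCCCCCGC occurs in 2.57%. Windows were also given for Ctsl and Gata1, but they do not begin at the outer end of the annotated gene and are not shown. The Ctsl window also holds the E box, 236 bases before its start, and 1 match of the SOX motif. The Gata1 window holds none of the motifs.

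Of 23 measured genes of FSH signalling, 6 passed limma's F test (26.1%, against 19.9% of all genes), 2 highest in each of XII-I, II-IV and IV-VI, and 0 highest in VII, VIII-IX or IX-XI. Pde4a, which degrades cyclic AMP, averaged 10.15 in IV-VI and 8.87 in VIII-IX, 2.43-fold apart (adjusted p = 0.045). Arrb1, an arrestin that uncouples receptors from their G proteins, was higher in IV-VI than in VIII-IX by 2.38-fold (adjusted p = 0.028). Prkar2a, a regulatory subunit of protein kinase A, averaged 11.97 in XII-I and 10.98 in VII, 1.98-fold apart (adjusted p = 0.045). With VII sample 2 left out, 4 of the 23 passed (17.4%, against 9.92% of all genes), and Pde4a (0.076) and Prkar2a (0.14) did not. Many signalling genes of this kind are also expressed in germ cells, which make up most of the testis.

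Trf (10596148), transferrin, had levels of 9.66 and 9.14 in XII-I, 9.26 and 9.36 in II-IV, 8.60 and 8.92 in IV-VI, 8.50 and 9.55 in VII, 9.16 and 9.46 in VIII-IX, and 9.05 and 8.64 in IX-XI. The VII samples were the lowest and the second highest of the 12 arrays, 1.05 log2 apart, the widest gap between partners among the 10 genes. Trf averaged 9.40 ± 0.36 (SD, n = 2) in XII-I and 8.76 ± 0.22 in IV-VI, 1.56-fold apart, and did not pass limma's F test (adjusted p = 0.47). Leaving out VII sample 2 gave a range of 0.90 log2, from XII-I to VII (adjusted p = 0.099). Over the 12 arrays Trf and Fshr had a Pearson correlation of 0.80, which is a description only.

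Among 24 measured genes of iron transport and storage, 6 passed limma's F test (25%, against 19.9% of all genes), and 1 without VII sample 2 (4.17%, against 9.92% of all genes). Ftmt, a mitochondrial ferritin, averaged 12.49 in IV-VI and 10.70 in VIII-IX, 3.45-fold apart (adjusted p = 0.038, 0.071 without VII sample 2). Slc40a1, the iron exporter ferroportin, averaged 7.96 in VII and 6.84 in VIII-IX, 2.17-fold apart (adjusted p = 0.030, 0.057 without VII sample 2). Ireb2, a regulator that binds iron-responsive elements of mRNAs, was higher in VII than in XII-I by 2.00-fold (adjusted p = 0.035, 0.074 without VII sample 2). Tfrc, the receptor for transferrin, lay between 8.22 in II-IV and 8.69 in VII and did not pass.

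Clu (10416057), clusterin, was nearly level apart from VII sample 2. Its levels were 12.11 and 12.18 in XII-I, 12.29 and 12.19 in II-IV, 12.26 and 12.27 in IV-VI, 12.21 and 12.69 in VII, 12.18 and 12.10 in VIII-IX, and 12.02 and 12.13 in IX-XI. The 11 arrays other than VII sample 2 lay within a narrow span, and the range over the groups was 0.38 log2 with it (limma F test, adjusted p = 0.37) and 0.19 without it (adjusted p = 0.54). Without VII sample 1, so that VII sample 2 alone stood for VII, Clu passed (adjusted p = 0.041).

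Of 13 genes of lipoprotein and clusterin uptake, 2 passed limma's F test (15.4%, against 19.9% of all genes), and 1 without VII sample 2 (7.69%, against 9.92%). Scarb1, a receptor for high-density lipoprotein that in Sertoli cells also takes up apoptotic germ cells, averaged 11.51 in IX-XI and 10.71 in II-IV, 1.74-fold apart (adjusted p = 0.027, 0.053 without VII sample 2). Lrp8, a receptor of the same family as the clusterin receptor Lrp2, was higher in II-IV than in VIII-IX by 1.48-fold (adjusted p = 0.028). Lrp2 itself lay between 7.02 in VIII-IX and 7.31 in II-IV and did not pass.

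Gata1 (10603417), a zinc finger factor better known from red blood cell development, had the second widest range of the 10 genes. Its levels were 8.49 and 8.04 in XII-I, 8.05 and 8.03 in II-IV, 8.65 and 8.05 in IV-VI, 8.77 and 9.33 in VII, 8.93 and 8.67 in VIII-IX, and 8.87 and 8.87 in IX-XI. All samples of VII, VIII-IX and IX-XI lay above all samples of XII-I, II-IV and IV-VI. How many of all genes showed this split is not given here. Gata1 averaged 9.05 ± 0.39 (SD, n = 2) in VII and 8.04 ± 0.01 in II-IV, 2.01-fold apart, and just missed the threshold (limma F test, adjusted p = 0.055). It passed in 5 of 22 alternatives: with quantile normalization repeated, without the dimmest 30% of probe sets, with a trended robust prior, with Sertoli centring (adjusted p = 0.0062) and without VII sample 1. It also passed in a fit of a sine and a cosine over the cycle (adjusted p = 0.016), as did Plat (adjusted p = 0.0025). The share of all genes that passed in that fit is not given here.

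Gata4 (10420747), a related factor present in Sertoli and Leydig cells, ran the other way except on VII sample 2. Its levels were 9.85 and 9.93 in XII-I, 9.86 and 9.91 in II-IV, 9.69 and 9.78 in IV-VI, 9.63 and 10.02 in VII, 9.63 and 9.56 in VIII-IX, and 9.54 and 9.56 in IX-XI. The XII-I, II-IV and IV-VI samples all lay above the VIII-IX and IX-XI samples, a split whose share of all genes is not given here. Gata4 averaged 9.89 ± 0.05 (SD, n = 2) in XII-I and 9.55 ± 0.02 in IX-XI, 1.26-fold apart (limma F test, adjusted p = 0.18). Without VII sample 2 the F test gave an adjusted p of 0.067, and the step of XII-I against IX-XI passed, with a log2 difference of 0.34 ± 0.08 (SE, adjusted p = 0.037), where 6.89% of all genes were called higher. That step also passed without VII sample 1, with the same log2 difference and SE. The step compares no VII sample. With all arrays its difference was the same, with an SE of 0.12, and it was not called (adjusted p = 0.10 in limma). The share of all genes called higher in this step without VII sample 1 is not given here. Without both VII samples the F test gave an adjusted p of 0.053. Leydig cell markers deviated by -0.10 and -0.21 log2 (median) on the VIII-IX arrays and by -0.09 and -0.64 on the IX-XI arrays, and their part in the Gata4 level was not tested.

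Wt1 (10474295), a zinc finger factor needed to keep Sertoli cell identity, had levels of 10.57 and 10.51 in XII-I, 10.60 and 10.52 in II-IV, 10.70 and 10.63 in IV-VI, 10.66 and 10.94 in VII, 10.82 and 10.57 in VIII-IX, and 10.62 and 10.65 in IX-XI. Groups next to each other in level overlapped, except that IX-XI lay above II-IV. The range was 0.26 log2 (limma F test, adjusted p = 0.50) and 0.15 without VII sample 2 (adjusted p = 0.78).

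Sox9 (10382328), the factor that starts Sertoli cell development, had levels of 9.64 and 9.64 in XII-I, 9.84 and 9.66 in II-IV, 9.82 and 9.81 in IV-VI, 9.95 and 10.30 in VII, 9.79 and 9.53 in VIII-IX, and 9.64 and 9.78 in IX-XI. It was the one gene of the 10 whose VII samples both lay above all other arrays, as 1.17% of all genes did, while 3.83% lay below them all. None of the 10 genes had another group wholly above or below the other arrays. Of all genes, 6.41% lay wholly above and 2.59% wholly below in XII-I, 1.02% and 0.843% in II-IV, 2.22% and 2.63% in IV-VI, 2.55% and 4.14% in VIII-IX, and 5.09% and 2.34% in IX-XI. VII against the other groups gave a log2 difference of 0.41 ± 0.10 (SE, unadjusted p = 0.0035, adjusted p = 0.12 in limma). Without VII sample 2 that difference was 0.23 ± 0.12 (adjusted p = 0.58).

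Of 15 other transcription factors of Sertoli cells and the gonad, a list that shares some genes with the Sertoli markers, 7 passed limma's F test (46.7%, against 19.9% of all genes), 4 of them highest in XII-I. Emx2, a homeobox factor of the early gonad, averaged 8.98 in XII-I and 7.04 in VII, 3.82-fold apart (adjusted p = 0.023). Nr0b1, an orphan nuclear receptor also called Dax1, averaged 11.25 in IX-XI and 9.88 in II-IV, 2.57-fold apart (adjusted p = 0.027). Etv5, an ETS factor needed for the spermatogonial stem cell niche, was higher in XII-I than in VII by 2.34-fold (adjusted p = 0.027). With VII sample 2 left out, 3 of the 15 passed (20%, against 9.92% of all genes), among them Nr0b1 (adjusted p = 0.049) and Etv5 (adjusted p = 0.031), while Emx2 did not (0.061).

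When each group was set against the mean of the other 5, 0 of the 60 comparisons of the 10 genes passed the adjusted test of limma, while 14 reached an unadjusted p under 0.05 (23.3%, against 21.8% of all such comparisons over all genes). In the adjusted test over all genes, 7.49% were called higher and 3.32% lower in XII-I, 3.54% higher and 4.31% lower in VIII-IX, 1.9% higher and 1.8% lower in IX-XI, and 0% in II-IV, IV-VI and VII. The closest was Plat in VIII-IX, with a log2 difference of 0.83 ± 0.24 (SE, adjusted p = 0.070), which passed without VII sample 2 (0.93 ± 0.18, adjusted p = 0.034), as 2.31% of all genes did in that direction. When each group was set against the group before it, 0 of 60 passed and 9 had an unadjusted p under 0.05 (15%, against 13.4% of all such comparisons over all genes). Over all genes, the step of XII-I against IX-XI had 7.33% called higher and 4.63% called lower, that of VIII-IX against VII had 2.27% and 1.66%, and each of the others had 0%.

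In VII against the other groups, 5 of the 10 genes had an unadjusted p under 0.05 in limma (Plat, Ctsl, Clu, Gata1 and Sox9, all higher), against 19.9% of all genes. The differences were 0.56 for Plat, 0.40 for Ctsl, 0.28 for Clu, 0.59 for Gata1 and 0.41 for Sox9 in log2. With VII sample 1 alone they were 0.07, 0.25, 0.04, 0.31 and 0.23, and the difference of Fshr was -0.53 in place of -0.30. With VII sample 2 alone, Clu (0.52, adjusted p = 0.021) and Sox9 (0.58, adjusted p = 0.038) were called higher, as were 3.25% of all genes. All 10 genes were higher in VII sample 2 than in VII sample 1, by 0.28 to 1.05 log2.

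The median of the Sertoli list was subtracted from each array, which lowered every gene by 0.45 log2 on VII sample 2. That array was then the highest for none of the 10 genes and the lowest for Plau, Fshr and Gata4. These ranks follow in part from the shift itself and are a description only. Plat stood at 9.17 on that array and 8.74 on VII sample 1, and its F test adjusted p was 1.8e-05, with 14.1% of all genes past the test. Relative to the Sertoli list, Plat was lower in II-IV (-0.95 ± 0.18, SE, adjusted p = 0.0030) and IV-VI (-0.66 ± 0.18, adjusted p = 0.036) and higher in VIII-IX (0.88 ± 0.18, adjusted p = 0.0023) and IX-XI (0.80 ± 0.18, adjusted p = 0.0099). Gata1 was lower in II-IV (-0.66 ± 0.17, adjusted p = 0.035). After centring, 1.47% of all genes were called lower in II-IV, 1.14% lower in IV-VI, 3.37% higher in VIII-IX and 2.37% higher in IX-XI. The centring gave 431 calls over all genes in II-IV, 662 in IV-VI and 685 in VII (42 higher and 643 lower), against 0 in each without it. The subtraction moved the median of all genes by -0.45 log2 on VII sample 2 and by -0.08 to 0.11 on the others.

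**Figure D4:**
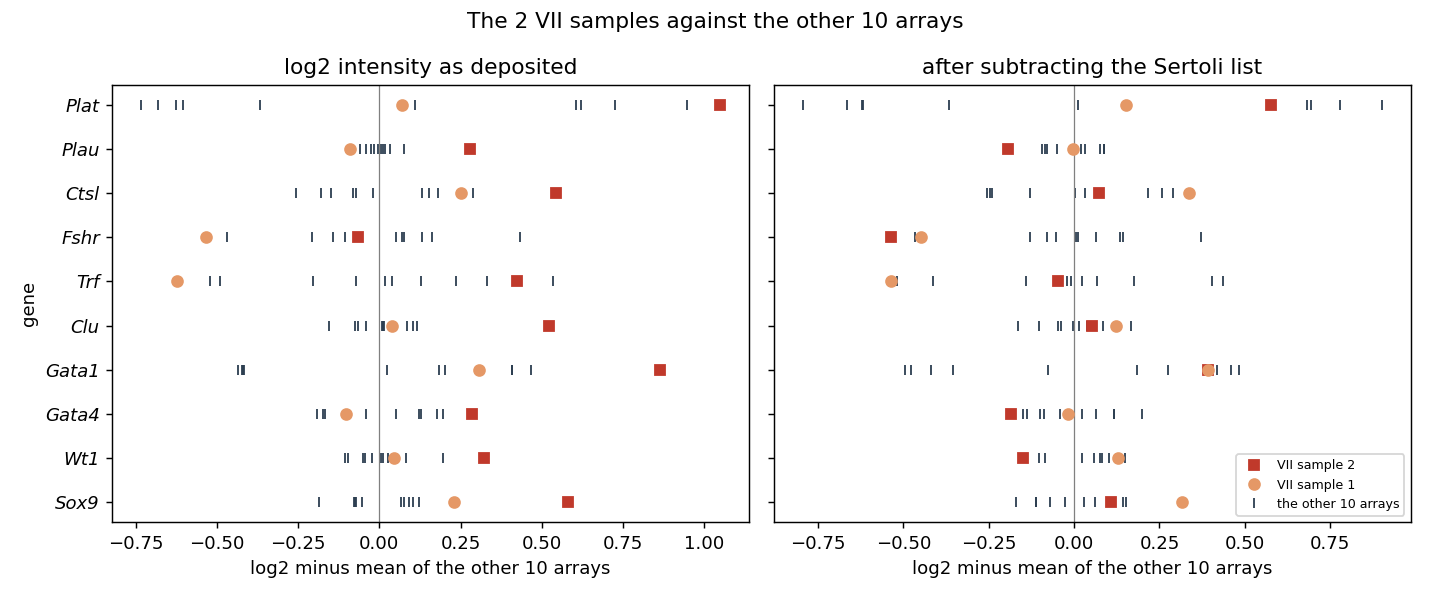
Level of the 10 genes (y axis) on VII sample 2 (red squares), VII sample 1 (orange circles) and the other 10 arrays (ticks), as log2 minus the mean of those 10 arrays (x axis). The left panel uses the deposited values and the right panel values after subtraction of the Sertoli list. VII sample 2 lies above all other arrays for 8 genes on the left and for 0 on the right. The subtraction lowered every gene on VII sample 2 by 0.45 log2, so this change follows in part from the shift itself.

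**Figure D5:**
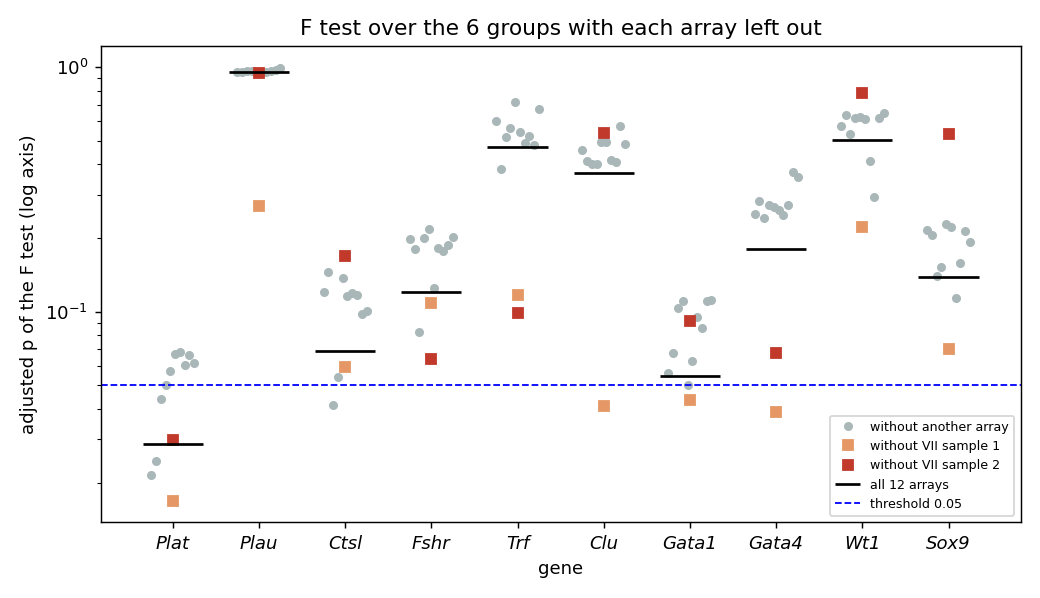
Adjusted p of limma's F test (y axis, log scale) for the 10 genes (x axis) with all 12 arrays (black bars) and with each array left out (points). Plat lies under the 0.05 threshold (dashed line) with all arrays and in 5 of 12 leave-outs, Ctsl in 1 (without II-IV sample 1), and Clu, Gata1 and Gata4 in 1 each (without VII sample 1).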

How the data were processed

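Per the labels, 100 ng of total RNA per sample was amplified and 3.75 ug of cDNA was biotin labelled. The authors deposited 1 table of intensity values made with RMA per the submitters' processing notes, on a linear scale from 24.97 to 21760. The RMA version and the genome build are not given in the sources used here. Values were taken to log2 with nothing added. The platform annotation gave 1 symbol to 21789 of 28853 probe sets, and the brightest per gene by mean log2 was kept, which left 19938 genes. All 10 symbols matched RefSeq by Entrez ID. Precision is limited by how few arrays there are.

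limma 3.58.1 in R 4.3.3 fitted 6 group means to all 12 arrays (6 residual degrees of freedom), with a moderated F test, each group against the other 5, and each against the group before it. P-values were adjusted by Benjamini-Hochberg over all genes, with a threshold of 0.05. In simulated data with noise independent between arrays, the code recovered the median size of known changes. The share of such changes that it called is not given here, and no shift of a whole array was simulated. Alternatives were repeated quantile normalization, a dim filter, other probe set rules, array weights, a replicate block, Sertoli centring, a harmonic fit, a trended robust prior and arrays left out. The array weights came out equal for the 2 samples of each group (0.94 for both VII samples). They therefore could not lower VII sample 2 against its partner.

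The 10 genes and the 16 lists (222 entries, 16 of them with no measured gene) were chosen with earlier results of these data known. Named list genes are the up to 3 past the F test with the widest range, and other list genes were named after their values were seen. Promoter sequence is from RefSeq, where 3 of the 10 genes had an entry.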

Additional observations from a re-analysis of the deposited data

How the results depend on the processing

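The share of all genes past limma's F test was 19.9% with the main settings and 14.1% with Sertoli centring. For the other settings that raised the count of the 10 genes with all 12 arrays, that share is not given here. The number of the 10 genes past limma's F test (1) was 2 with repeated quantile normalization and without the dimmest 30% of probe sets. It was also 2 with Sertoli centring and in the harmonic fit, and 3 with a trended robust prior. It was 0 with IX-XI sample 2 and its neighbour VIII-IX sample 2 both removed, and 0 to 4 when each array was left out, 4 without VII sample 1. The count over all genes (3974) was 1517 to 4269 when each array was left out, 19 with IX-XI sample 2 and its neighbour VIII-IX sample 2 both removed, and 2646 without both VII samples. The calls of a group against the others (0 of 60) were 1 with array quality weights, 5 with Sertoli centring and 0 to 2 when each array was left out. The calls of a group against the one before (0 of 60) were 1 with Sertoli centring and 0 to 5 when each array was left out, and those in VII (0 of 10) were 0 to 2. Apart from the calls already named, Ctsl passed the F test with the trended robust prior (adjusted p = 0.039) and without II-IV sample 1 (adjusted p = 0.042), and Gata4 without VII sample 1 (adjusted p = 0.039). Ctsl was also called higher in VII without II-IV sample 1 (adjusted p = 0.047) and lower in XII-I without II-IV sample 2 (adjusted p = 0.040), and Plat lower in II-IV without XII-I sample 2 (adjusted p = 0.039), higher in VIII-IX without XII-I sample 1 (adjusted p = 0.031) and lower in IV-VI with array quality weights (adjusted p = 0.029). Clu and Sox9 fell in VIII-IX against VII without VII sample 1 (adjusted p = 0.027 and 0.041). With the replicate block, the F test count was 1 of the 10 genes and 4145 of all genes, and no call of the 10 genes changed. Same-numbered samples deviated together (correlation over 0.1) in 7 of 15 pairs of groups, with correlations from -0.35 to 0.54, so the numbers were not taken as pairs.

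The difference of VII from the other groups turned its sign with Sertoli centring for Plau (-0.098, against 0.095), Gata4 (-0.10, against 0.092) and Wt1 (-0.010, against 0.18). When each array was left out, it was -0.089 to 0.28 for Plau, -0.10 to 0.29 for Gata4 and -0.62 to 0.42 for Trf (-0.099 with all arrays), with one end without VII sample 2 and the other without VII sample 1. The cause of changes between settings was not tested. Sertoli centring also moved the split of all calls: the share called higher was 46.8% with it and 69.3% without it in XII-I, 64.2% and 45.1% in VIII-IX, 83.7% and 51.4% in IX-XI, 28.2% and 61.3% for XII-I against IX-XI, and 82% and 57.8% for VIII-IX against VII. Where an array was left out, the remaining sample of its group was assumed to vary like the other groups. These values give no background signal per probe set, so the presence of dim genes such as Plau cannot be judged.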

Other observations

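Among 20 measured Sertoli cell markers, which hold none of the 10 genes, 5 passed limma's F test (25%, against 19.9% of all genes). Without VII sample 2, 3 passed (15%, against 9.92% of all genes), 2 of those 5 (Espn and Erbb4) and Shbg, the androgen-binding protein gene, named after its values were seen (adjusted p = 0.049, 0.12 with all arrays). Drd4, a dopamine receptor, averaged 9.84 in IX-XI and 8.79 in XII-I, 2.07-fold apart (adjusted p = 0.033, 0.070 without VII sample 2). Espn, which bundles actin at the ectoplasmic specializations that anchor spermatids, averaged 10.65 in XII-I and 9.61 in IX-XI, 2.06-fold apart (adjusted p = 0.013, 0.027 without VII sample 2). Erbb4, a receptor tyrosine kinase for neuregulins, was higher in VIII-IX than in IV-VI by 1.71-fold (adjusted p = 0.029, 0.044 without VII sample 2). Rhox8, a homeobox factor, was highest in VII (1.62-fold range), and Dmrt1, a factor that maintains male Sertoli cell fate, was highest in IV-VI (1.52-fold range). Neither passed without VII sample 2 (adjusted p = 0.10 for Rhox8 and 0.060 for Dmrt1). Of 11 macrophage markers, 1 passed limma's F test (9.09%, against 19.9% of all genes). It was Adgre1, with 8.58 in II-IV and 7.66 in VIII-IX, 1.88-fold apart (adjusted p = 0.024).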
